A study of Homo sapiens with 12 samples.

Results

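The E2F transcription factors and the RB pocket proteins they bind were followed in prostate cancer cells in which the glycosyltransferase GALNT7 had been lowered or raised. The 10 genes are E2F1, E2F2, E2F3, E2F4, E2F5, E2F7, E2F8, RB1, RBL1 and RBL2, chosen by name as members of these families, out of the 59424 genes in the deposited tables. All 10 had 1 Ensembl identifier in the tables and passed the filter on low values in both cell lines. RNA-seq was made from stable cell lines created by lentiviral transduction, with 4 groups of 3 biological replicates each and 12 libraries in all. CWR22RV1 cells, a human prostate cancer line, were transduced with a control shRNA, here shControl, or with shRNA that lowers GALNT7, here GALNT7 KD. DU145 cells, another human prostate cancer line, received a control construct, here OE control, or a construct that expresses GALNT7, here GALNT7 OE. DU145 cells are known to lack functional RB1 protein because of a mutation in the gene, so that in these cells the RB1 transcript is measured without the protein it normally encodes. The comparison in each cell line asks which of these regulators differ at the RNA level when GALNT7 is lowered or raised.

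E2F factors bind the promoters of genes needed for DNA replication and the cell cycle, mostly as dimers with a DP protein. E2F1, E2F2 and E2F3 are known as activators, E2F4 and E2F5 act mainly with the pocket proteins p107 (RBL1) and p130 (RBL2) as repressors in resting cells, and E2F7 and E2F8 are atypical E2Fs that repress without a DP partner or a pocket protein. RB1 holds the activator E2Fs until cyclin-dependent kinases phosphorylate it, and several E2F genes are themselves E2F targets, which is why their promoters are shown here.

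RefSeq promoter windows on GRCh38.p14, which run from 250 bases before to 50 bases after a gene's start, were found for 8 of the 10 genes in 10 windows. They were searched on both strands for 8 words of the E2F site, namely TTTCCCGC, TTTCCCGG, TTTCGCGC, TTTCGCGG, TTTGCCGC, TTTGCCGG, TTTGGCGC and TTTGGCGG. Each of the 4 windows with a word held at least 2, and the 100 bases before the start are printed for these because they show where the words lie. Capitals mark every base inside a word, and the sequences run 5′ to 3′ on the strand of the gene. E2F2 lies at chr1:23531234-23531333 on the minus strand, E2F3 at chr6:20401779-20401878 on the plus strand, E2F1 at chr20:33686386-33686485 on the minus strand and RBL1 at chr20:37095998-37096097 on the minus strand.
E2F1: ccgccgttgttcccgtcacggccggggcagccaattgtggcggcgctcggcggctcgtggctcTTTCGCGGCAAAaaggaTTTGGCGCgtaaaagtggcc
E2F2: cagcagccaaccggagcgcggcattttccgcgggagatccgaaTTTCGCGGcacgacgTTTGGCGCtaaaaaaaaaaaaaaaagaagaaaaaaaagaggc
E2F3: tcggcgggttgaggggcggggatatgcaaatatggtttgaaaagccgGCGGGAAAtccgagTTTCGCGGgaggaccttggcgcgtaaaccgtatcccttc
RBL1: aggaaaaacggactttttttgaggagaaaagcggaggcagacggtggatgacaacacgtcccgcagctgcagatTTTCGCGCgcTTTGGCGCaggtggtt

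The E2F1 stretch held 3 words, of which TTTCGCGG on the gene's strand and TTTGCCGC on the other strand overlapped, and the other stretches held 2 each. In E2F2 the words lay at -57 to -50 and -42 to -35 from the start, and in RBL1 at -26 to -19 and -16 to -9. Of all 35116 RefSeq windows, 6.19% held at least 1 word and 0.379% held 2 or more. The windows of E2F4, E2F7, RB1 and RBL2 held none of the 8 words. The RB1 window begins at 48476200 on chromosome 13, whereas the gene begins at 48303726 in GENCODE release 29, so this window belongs to a start inside the gene.

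Between 18364512 and 22264533 reads were counted per CWR22RV1 library and between 21628718 and 24356910 per DU145 library. The deposited values are normalised read counts, each the number of reads divided by a factor for its library, and the cell lines were scaled separately. GALNT7 itself, as a check of the labels, averaged 999 ± 122 normalised counts in the knockdown control against 461 ± 53.7 after knockdown (SD, n=3), and 964 ± 75.8 in the overexpression control against 2181 ± 176 after overexpression. The prostate marker genes KLK3 and HOXB13 averaged 392 and 5972 in shControl cells, against 0.00 and 4.70 in OE control cells, while AXL and CAV1 averaged 16748 and 5126 in OE control cells against 2.45 and 18.6 in shControl cells. Among 8 markers of leukocytes, endothelium and fibroblasts, CD3E was at 0 in every library and PTPRC averaged under 1 normalised count in every group. Their summed count was 189 to 207 in shControl, 207 to 280 in GALNT7 KD, 2900 to 3191 in OE control and 1070 to 1242 in GALNT7 OE libraries, with CD68 and COL1A1 making up most of it in DU145 cells. The part of these genes in the results below was not tested.

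For every gene the groups within a cell line were compared in limma on the log2(normalised count + 1) scale, with Benjamini-Hochberg adjustment over all genes tested and a threshold of 0.05. Fold changes on this scale understate the change of genes with few reads. After GALNT7 overexpression 43.5% of the 18705 genes tested passed, 22.9% higher and 20.5% lower, whereas after knockdown 9.06% of 17906 genes passed, 5.28% higher and 3.79% lower. The higher and lower calls numbered 4290 and 3842 in overexpression and 945 and 678 in knockdown, but 3095 and 5052, and 656 and 1231, when each library was rescaled to the 75th percentile of its values. That rescaling moved the median log2 fold change of all genes from -0.011 to -0.14 in overexpression and from -0.0063 to -0.092 in knockdown.

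After GALNT7 overexpression 8 of the 10 genes passed the threshold, 7 higher and 1 lower, against the 43.5% of all genes called. E2F8, E2F2, E2F7 and E2F1 rose by 2.16-fold to 3.60-fold, E2F3, RB1 and RBL1 rose by 1.16-fold to 1.31-fold, and RBL2 fell to 0.686 of its control level. E2F4 and E2F5 did not pass. The median log2 fold change of the 10 genes was 0.38, beside -0.011 over all genes tested. The groups did not overlap for 8 of the 10 genes, against 55.3% of all genes.

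E2F1 (ENSG00000101412, chromosome 20, 33675683 to 33686404 on the minus strand of GRCh38) is the activator best known for driving entry into DNA replication. Its normalised count was 686, 735 and 725 in the OE control libraries and 1592, 1547 and 1495 in the GALNT7 OE libraries. Each GALNT7 OE library stood far above each control library, with little spread in either group. It rose by a log2 fold change of 1.11 (limma standard error 0.061, adjusted p=2.5e-05), higher than that of 95.7% of the genes tested.

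E2F2 (ENSG00000007968, chromosome 1, 23506430 to 23531220, minus strand), a close relative of E2F1, had normalised counts of 196, 198 and 175 in the control and 545, 695 and 750 in GALNT7 OE libraries. Its libraries were also fully apart, with a wider spread among the GALNT7 OE libraries (SD 106) than among the control libraries (SD 12.6). The log2 fold change was 1.79 (standard error 0.14, limma adjusted p=9.5e-05).

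E2F3 (ENSG00000112242, chromosome 6, 20401906 to 20493715, plus strand), the third activator, had 815, 845 and 800 normalised counts in the control and 885, 991 and 980 in GALNT7 OE libraries. The groups did not overlap, but GALNT7 OE replicate 1 lay only just above the highest control library. The log2 fold change was 0.21 (standard error 0.071, limma adjusted p=0.047). It lost the threshold in 10 of 16 alternatives, among them the 75th percentile rescaling, where it was 0.079 with an adjusted p of 0.37 in limma, and the fits without any single library other than GALNT7 OE replicate 1. The E2F3 pseudogene E2F3P2, a near copy whose reads could be shared with the gene, averaged 4.86 normalised counts in DU145 cells and 5.67 in CWR22RV1 cells.

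The atypical E2Fs had the largest and the third largest changes of the family. E2F8 (ENSG00000129173, chromosome 11, 19224063 to 19241620, minus strand) had 128, 147 and 165 normalised counts in the control and 479, 572 and 535 in GALNT7 OE libraries, so that every GALNT7 OE library lay far above every control. Its log2 fold change was 1.85 (standard error 0.13, limma adjusted p=6.3e-05), higher than that of 98.8% of genes. E2F7 (ENSG00000165891, chromosome 12, 77021247 to 77065580, minus strand) was the least abundant of the 10 genes in these cells, with 68.7, 95.1 and 43.3 normalised counts in the control and 186, 259 and 148 in GALNT7 OE libraries. The spread within each group was wide for E2F7, yet the groups did not overlap. Its log2 fold change was 1.54 with a 95% interval from 0.77 to 2.31 (limma adjusted p=0.0082).

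Neither of the E2Fs that act mainly with p107 and p130 passed. E2F4 (ENSG00000205250, chromosome 16, 67192169 to 67198918, plus strand) had 1710, 1858 and 1758 normalised counts in the control and 1956, 1784 and 2013 in GALNT7 OE libraries, so that the groups overlapped. The log2 difference was 0.11 with a 95% interval from -0.046 to 0.27 (limma adjusted p=0.22), and was -0.024 after the 75th percentile rescaling. E2F5 (ENSG00000133740, chromosome 8) ranged from 284 to 334 normalised counts in the control and from 327 to 366 in GALNT7 OE libraries. Its log2 difference was 0.15 with a 95% interval from -0.086 to 0.40 (limma adjusted p=0.26). Both intervals lie below the changes fitted for E2F1, E2F2, E2F7 and E2F8. E2F5 overlaps C8orf59 on the other strand, and the library kit keeps the strand. RBL2 likewise overlaps AKTIP, and RB1 overlaps RCBTB2. C8orf59, AKTIP and RCBTB2 averaged 525, 495 and 22.8 normalised counts over the DU145 libraries. The labels do not say whether the counting of reads used the strand.

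The 3 pocket proteins did not move together. RBL2 (ENSG00000103479, chromosome 16, 53433977 to 53491649, plus strand) encodes p130, the pocket protein known from resting cells, and had 3684, 3669 and 3882 normalised counts in the control and 2598, 2378 and 2731 in GALNT7 OE libraries. All GALNT7 OE libraries lay below all control libraries. The log2 fold change was -0.55 (standard error 0.063, limma adjusted p=5.5e-04), and RBL2 was the only one of the 10 genes that fell in DU145 cells.

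RBL1 (ENSG00000080839, chromosome 20, 36996349 to 37095995, minus strand) encodes p107, whose gene is a known E2F target, and had 626, 633 and 531 normalised counts in the control and 712, 806 and 821 in GALNT7 OE libraries. RB1 (ENSG00000139687, chromosome 13, 48303726 to 48599436, plus strand) had 1004, 1170 and 1043 in the control and 1442, 1492 and 1247 in GALNT7 OE libraries. In both genes the groups were apart, and in RB1 the gap between GALNT7 OE replicate 3 and OE control replicate 2 was small beside the spread. The log2 fold changes were 0.39 for RBL1 (limma adjusted p=0.019) and 0.38 for RB1 (limma adjusted p=0.016). The median log2 fold change of the genes tested was -0.13 on chromosome 20 and 0.13 on chromosome 13. Relative to these medians RBL1 was at 0.52 and RB1 at 0.25, and the part of a chromosome shift in them was not tested. RBL1 and RB1 each lost the threshold in 4 of 16 alternatives. After the 75th percentile rescaling their log2 fold changes were 0.25 (limma adjusted p=0.066) and 0.24 (limma adjusted p=0.086). Without OE control replicate 3, or without GALNT7 OE replicate 2, neither RB1 nor RBL1 nor E2F3 passed and 5 of the 10 genes were called. RB1 also lost the threshold without OE control replicate 1, and RBL1 without GALNT7 OE replicate 3.

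**Figure D1:**
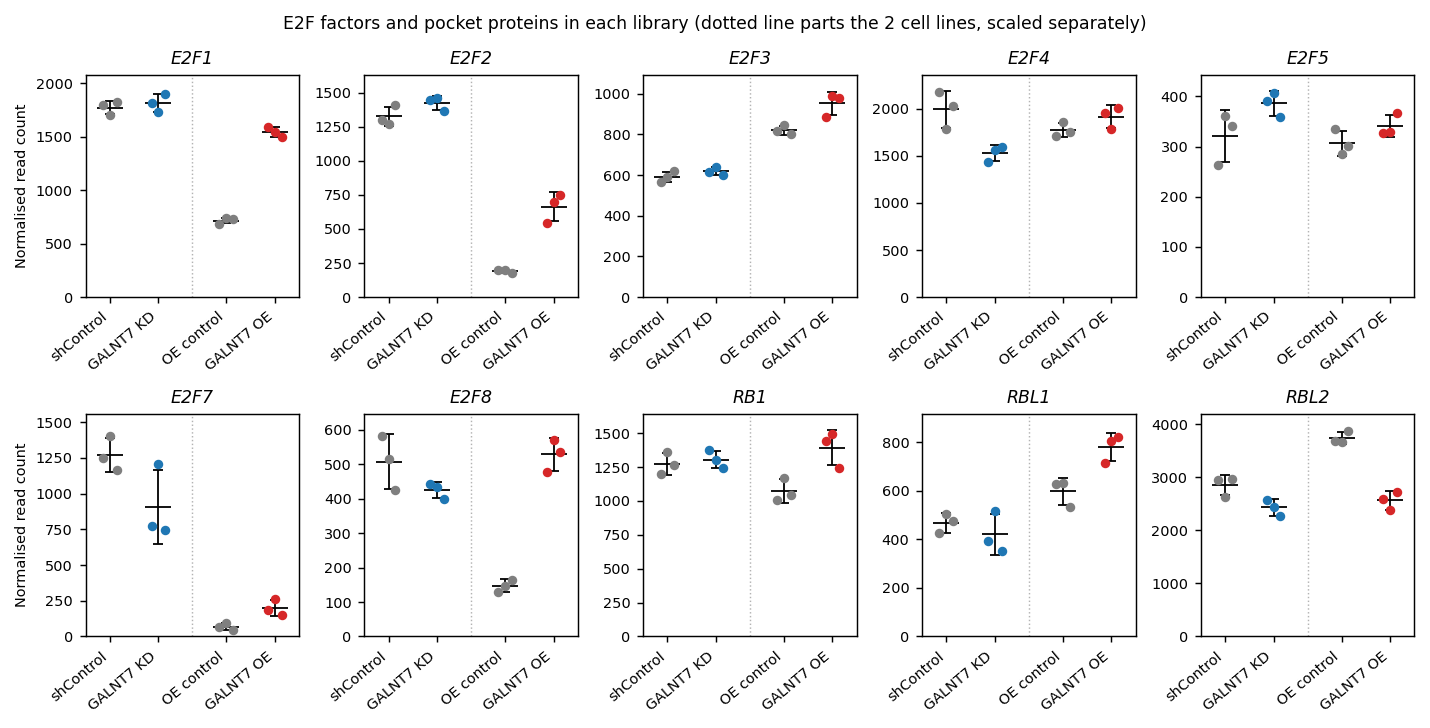
Normalised read count of each of the 10 genes (vertical axis, from 0) in the 12 libraries, shown as points by group, with a horizontal mark for the mean and error bars for 1 SD over 3 libraries. In DU145 cells E2F1, E2F2, E2F7 and E2F8 lie well above their control after GALNT7 overexpression and RBL2 lies below it, while in CWR22RV1 cells the groups of most genes overlap.

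In CWR22RV1 cells with GALNT7 knocked down, 1 of these 10 genes passed the threshold, against 9.06% of all genes, and it was lower. The median log2 fold change of the 10 genes was -0.066, beside -0.0063 over all genes, with 5 values above 0 and 5 below. The groups did not overlap for 2 of the 10 genes, against 32.5% of all genes tested.

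The called gene was E2F4, which had 2175, 1786 and 2028 normalised counts in shControl and 1437, 1567 and 1599 in GALNT7 KD libraries. All knockdown libraries lay below all controls. The log2 fold change was -0.38 with a 95% interval from -0.59 to -0.17 (limma adjusted p=0.046), and the call was lost in 8 of 16 alternatives, with adjusted p-values of up to 0.14 in limma. Among them were the fits without any single library other than shControl replicate 2. RBL2, the other gene whose groups did not overlap, had 2947, 2632 and 2970 in shControl and 2578, 2451 and 2273 in GALNT7 KD libraries. Its log2 difference was -0.23 with a 95% interval from -0.40 to -0.052 and did not pass (limma adjusted p=0.11). With DESeq2 on the recovered reads the adjusted p of RBL2 was 0.039, and with the 75th percentile rescaling it was 0.043 in limma.

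E2F1, E2F2 and E2F8, which rose in DU145 cells, did not pass here. E2F1 had 1795, 1698 and 1818 normalised counts in shControl and 1816, 1728 and 1900 in GALNT7 KD libraries, groups that overlapped. The 95% interval of its log2 difference ran from -0.11 to 0.18 (limma adjusted p=0.77). E2F2 had 1298, 1272 and 1408 in shControl and 1443, 1464 and 1365 in GALNT7 KD libraries, with an interval from -0.056 to 0.26 (limma adjusted p=0.38). E2F8 ranged from 426 to 583 in shControl and from 401 to 444 in GALNT7 KD libraries, with an interval from -0.55 to 0.065 (limma adjusted p=0.29).

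E2F7 had 1247, 1402 and 1163 normalised counts in shControl and 771, 1209 and 747 in GALNT7 KD libraries. Knockdown replicate 2 lay within the control range and the other knockdown libraries well below it. The log2 difference was -0.51 with a 95% interval from -0.97 to -0.062 (limma adjusted p=0.15), and without GALNT7 KD replicate 2 it was -0.74 (limma adjusted p=0.020). E2F7 lies on chromosome 12, where the 922 genes tested had a median log2 fold change of -0.28 in knockdown. Relative to that median the E2F7 value was -0.24, and the part of the chromosome shift in it was not tested.

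The remaining genes, E2F3, E2F5, RB1 and RBL1, had overlapping groups and log2 differences from -0.17 to 0.27. RB1, whose protein is the best known brake on the activator E2Fs, ranged from 1199 to 1362 normalised counts in shControl and from 1243 to 1374 in GALNT7 KD libraries. Its interval from -0.14 to 0.21 places any change of the RB1 transcript within a narrow range (limma adjusted p=0.82). RBL1 was less closely measured, with 425 to 505 in shControl and 354 to 516 in GALNT7 KD libraries and an interval from -0.54 to 0.20. E2F5 ranged from 262 to 361 in shControl and from 358 to 407 in GALNT7 KD libraries, and its interval ran from -0.059 to 0.61.

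The comparisons of the cell lines differ in vector, control and cell, and a difference between their effects was not tested. The values stand side by side as 1.11 and 0.035 for E2F1, 1.79 and 0.10 for E2F2, 1.85 and -0.24 for E2F8, 1.54 and -0.51 for E2F7, and -0.55 and -0.23 for RBL2, as log2 fold changes in overexpression and then in knockdown.

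**Figure D2:**
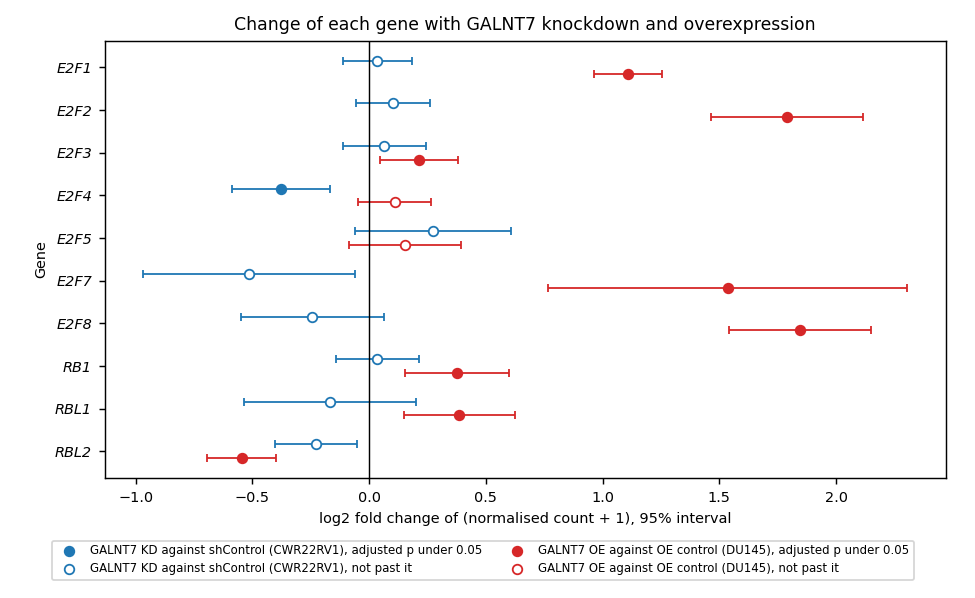
Log2 fold change of normalised count + 1 for each gene (horizontal axis) with its 95% interval from limma, in blue for GALNT7 KD against shControl and in red for GALNT7 OE against OE control. Filled points passed an adjusted p of 0.05, which 8 red points and 1 blue point did, and the red points of E2F1, E2F2, E2F7 and E2F8 lie farthest to the right.

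To compare levels between genes, reads as a share of the library (RPM) were divided by the kilobases of exon of each gene in GENCODE 29. That length joins all annotated exons of a gene, whichever transcripts the cells make, so the order of the genes depends on it. Before the division E2F4 stood above E2F1, with 101 and 89.8 RPM in shControl cells and 84.9 and 68.4 RPM in GALNT7 OE cells. In shControl cells E2F1 stood highest with 35.9 ± 1.28 RPM per kb (SD, n=3), followed by E2F4 with 28.3 ± 2.75, RBL2 with 19.8 ± 1.30, E2F2 with 12.3 ± 0.676, E2F7 with 10.2 ± 0.982 and RB1 with 10.04 ± 0.657. E2F8, E2F3, RBL1 and E2F5 followed with 6.23, 5.81, 3.99 and 2.75. Neighbours in this order whose libraries overlapped were E2F7 and RB1, and E2F8 and E2F3. In OE control cells the order began with RBL2 at 23.1 ± 0.714 and E2F4 at 22.3 ± 1.01, which overlapped, and E2F1 came next with 12.9 ± 0.494. E2F8, E2F2 and E2F7 closed the order with 1.60, 1.57 and 0.49, below RB1 (7.49 ± 0.626), E2F3 (7.16), RBL1 (4.52) and E2F5 (2.33). After overexpression E2F1 led with 27.3 ± 1.04, followed by E2F4 with 23.7 ± 1.38 and RBL2 with 15.5 ± 1.00, with no overlap between these neighbours. E2F8 reached 5.66 and E2F2 reached 5.38, levels that overlapped with each other and with RBL1 at 5.80, and E2F7 stayed lowest with 1.39 ± 0.402.

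The makeup of the family on this per-length scale is given as a description, since the genes are the same ones tested above. The shares and ratios also depend on the exon lengths used. In DU145 cells the activators E2F1, E2F2 and E2F3 made up 44.7% ± 0.215 of the summed level of the 7 E2F genes in the control and 55.1% ± 0.911 after overexpression (SD, n=3). The share of E2F4 and E2F5 went from 51.0% ± 0.161 to 35.4% ± 1.95, and that of E2F7 and E2F8 from 4.32% ± 0.284 to 9.50% ± 1.07. None of these shares overlapped between the groups. The sum of the 7 E2F genes itself was 48.4 ± 1.68 RPM per kb in the control and 74.2 ± 0.542 after overexpression. E2F4 was at 22.3 and 23.7 RPM per kb and E2F5 at 2.33 and 2.54, so their smaller share was not a fall in their own levels. The summed E2F level was 1.36 to 1.41 times the summed pocket protein level in the control libraries and 2.37 to 2.42 times in the GALNT7 OE libraries.

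Within the pocket proteins of DU145 cells, RBL2 made up 65.8% ± 2.18 in the control and 50.3% ± 3.04 after overexpression. RB1 went from 21.3% ± 1.43 to 31.0% ± 3.14 and RBL1 from 12.9% ± 1.28 to 18.8% ± 1.42, with no overlap between the groups. In CWR22RV1 cells the ratio of E2F to pocket protein level was 3.01 ± 0.0940 in shControl and 3.06 ± 0.214 in GALNT7 KD cells, and the groups overlapped. The activators made up 53.2% ± 1.49 and 59.9% ± 2.19 of the E2F level there, without overlap, although none of the 3 activators passed the test. The summed E2F level itself was 98.1 to 104 RPM per kb in shControl and 91.4 to 96.2 in GALNT7 KD libraries. E2F4 and E2F5 made up 30.5% ± 1.41 and 26.7% ± 0.790 of it, also without overlap. E2F7 and E2F8 made up 16.2% ± 1.86 and 13.4% ± 2.12, with overlap.

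**Figure D3:**
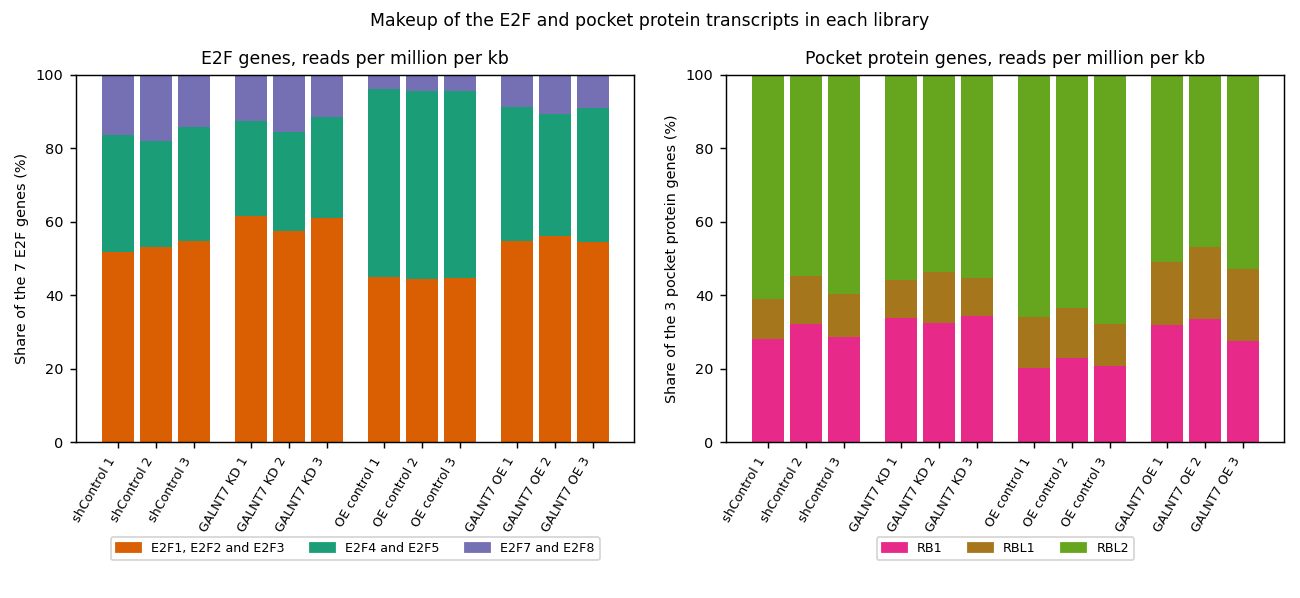
Share in percent (vertical axis, 0 to 100) of the summed RPM per kb of the 7 E2F genes (left) and of the 3 pocket protein genes (right) in each of the 12 libraries. In DU145 cells the green share of E2F4 and E2F5 was 51.0% on average in the control and 35.4% after overexpression, and the share of RBL2 was 65.8% and 50.3%. The sums behind these shares were 48.4 and 74.2 RPM per kb for the E2F genes and 35.1 and 30.9 for the pocket protein genes.

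The partners of the family in DU145 cells were followed with lists of genes that act with, upstream of or downstream of it. Both dimerisation partners rose, TFDP1 (DP1) by a log2 fold change of 0.39 (limma adjusted p=0.0027) and TFDP2 (DP2) by 0.48 (limma adjusted p=0.0013). E2F6, a repressor that does not bind pocket proteins, gave 0.072 and did not pass. Of the 8 genes of the MuvB core and its partners, which form the repressive DREAM complex with p130 or p107 and the activating complexes with MYBL2 and FOXM1, 6 rose and the other 2 did not pass, while 22.9% of all genes were called higher. MYBL2 (B-MYB) went from 1138 ± 37.6 to 4640 ± 68.1 normalised counts, a log2 fold change of 2.03, and FOXM1 from 971 ± 35.6 to 3734 ± 107, a log2 fold change of 1.94. The core subunits LIN9 (0.81), LIN54 (0.60), LIN52 (0.50) and RBBP4 (0.37) rose, while LIN37 (-0.31) and DYRK1A (0.28), the kinase that helps the complex to assemble, did not pass.

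Among the kinases and cyclins that phosphorylate pocket proteins, 7 of 8 genes were tested in DU145 cells and 4 rose, beside 22.9% of all genes called higher and 43.5% called in either direction. CCNE2 (cyclin E2) had a log2 fold change of 1.31, CDK2 of 0.96, CDK4 of 0.39 and CCND3 (cyclin D3) of 0.26. CDK6, CCND1 and CCNE1, with values of 0.72, -0.18 and -0.20, did not pass, and CCND2 was too low to be tested. Of 7 inhibitors of these kinases 5 rose and 1 fell, beside 22.9% and 20.5% of all genes. CDKN1C (p57) fell from 194 ± 14.4 to 35.3 ± 3.41 normalised counts, a log2 fold change of -2.43, while CDKN2C (p18) had 0.78, CDKN1A (p21) 0.55, CDKN2D (p19) 0.42, CDKN2A (p16) 0.37 and CDKN2B (p15) 0.32, all past the threshold. CDKN1B (p27) gave -0.17 and did not pass.

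Of 42 G1/S genes known as E2F targets, 39 rose in DU145 cells, with a median log2 fold change of 1.12 beside -0.011 over all genes, and 22.9% of all genes tested were called higher. CDC45, a helicase cofactor at replication forks, rose most (2.10, from 327 ± 38.4 to 1397 ± 44.6 normalised counts), followed by TK1 (thymidine kinase, 2.01), CCNA2 (cyclin A2, 1.98) and MCM10 (1.98). CCNE1, POLD1 and POLE were the genes that did not pass. All 30 G2/M genes, which are known targets of DREAM, MYBL2 and FOXM1, rose, with a median of 1.85 and values from 0.51 to 2.18. PLK1, a mitotic kinase, went from 549 ± 9.35 to 2491 ± 87.7 normalised counts, and CDK1, BUB1 and CDC25C had log2 fold changes of 2.18, 2.17 and 2.16. Among E2F targets with roles in apoptosis, PMAIP1 (-0.60) and BBC3 (-0.45) fell, while APAF1 (0.46), CASP8 (-0.28) and BCL2L11 (-0.044) did not pass. In bulk RNA, more cells in a phase of the cell cycle and more RNA of these genes per cell cannot be told apart.

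The same lists were counted in CWR22RV1 cells, where 9.06% of all genes passed, 5.28% higher and 3.79% lower. Neither dimerisation partner passed in limma or edgeR, with values of 0.036 for TFDP1 and 0.43 for TFDP2, but 1 of them had an unadjusted p under 0.05 and 1 passed in DESeq2. E2F6 (0.14) did not pass either. Of the MuvB and DREAM genes FOXM1 alone passed, from 5609 ± 312 to 4247 ± 53.7 normalised counts, a log2 fold change of -0.40 (limma adjusted p=0.0075). MYBL2 gave 0.025 and the core subunits LIN9, LIN54, RBBP4, LIN37 and LIN52 gave 0.16, 0.092, -0.096, -0.39 and -0.50, none past the threshold, as was DYRK1A with -0.28. Of the 7 kinases and cyclins tested 5 passed, with CCND3 (0.47) and CCNE2 (0.45) higher and CCND1 (-0.39), CDK4 (-0.27) and CDK2 (-0.24) lower, whereas CDK6 (0.81) and CCNE1 (0.26) did not pass. When single libraries were left out, 0 to 3 of these 7 genes passed, with 0 of them without shControl replicate 3 and 0 without GALNT7 KD replicate 1.

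CDKN1A rose after knockdown, from 1394 ± 66.04 to 2010 ± 74.2 normalised counts (log2 fold change 0.53), and CDKN1B fell (-0.32), while CDKN1C (-0.52), CDKN2A (0.17), CDKN2B (-0.068), CDKN2C (-0.13) and CDKN2D (0.047) did not pass. Of the 42 G1/S genes 2 rose, CCNE2 and POLA1 (0.34), and 3 fell, POLE (-0.96), TYMS (-0.36) and UNG (-0.17), a share near the 9.06% of all genes called, with a median of -0.024 beside -0.0063 over all genes. Of the 30 G2/M genes PRC1, a spindle midzone protein, fell (-0.50) and no other passed, with a median of -0.10. Log2 differences below 0 numbered 23 of 42 in the G1/S list and 23 of 30 in the G2/M list. At an unadjusted limma p under 0.05 there were 15 G1/S genes, 5 higher and 10 lower, and 6 G2/M genes, all lower. The share of all genes at that cutoff is not reported here. None of the 8 apoptosis genes passed in limma, edgeR or DESeq2, and 1 of them had an unadjusted p under 0.05 in limma. Their values ran from -1.42 for TP73, which was at 51.5 and 20.6 normalised counts, to 0.33 for BCL2L11, with BBC3 (0.16), APAF1 (0.060), PMAIP1 (-0.14) and CASP8 (-0.22) between them. FOXM1, CDK4, CDK2, CDKN1B, POLE and UNG lie on chromosome 12, with its median of -0.28, and relative to that median CDK4, CDK2 and UNG were at 0.0048, 0.036 and 0.11 and FOXM1, CDKN1B and POLE at -0.12, -0.041 and -0.68.

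**Figure D4:**
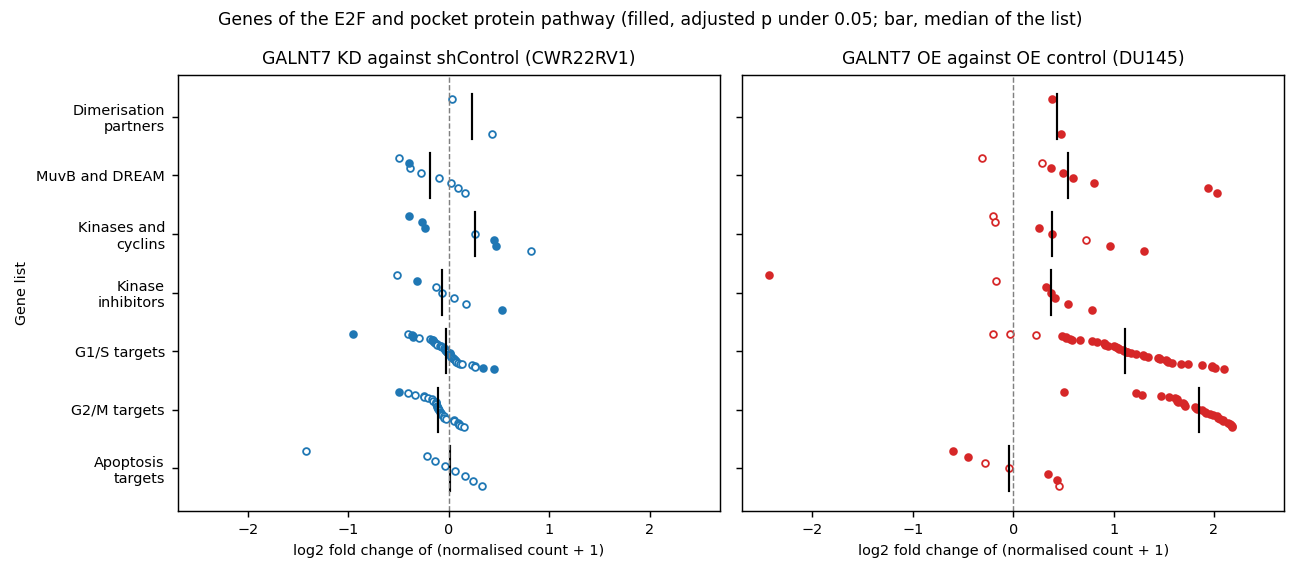
Log2 fold change of normalised count + 1 (horizontal axis) for each tested gene of 7 gene lists, after GALNT7 knockdown (left) and overexpression (right). Filled points passed an adjusted p of 0.05 and black bars are medians. The medians of the G1/S and G2/M lists lie at 1.12 and 1.85 on the right and at -0.024 and -0.10 on the left.

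The promoter words can be set beside these values as a description. The 4 genes with words, E2F1, E2F2, E2F3 and RBL1, were all called higher in DU145 cells, beside 22.9% of all genes tested. Of the 4 genes whose windows held none, E2F7 and RB1 were called higher, RBL2 lower and E2F4 did not pass. The RB1 window belongs to a start inside the gene, and E2F3, RBL1 and RB1 lost the threshold in some alternatives. A link between words and changes was not tested. E2F words were in 27 of 54 windows of the G1/S list (50%) and in 5 of 35 windows of the G2/M list (14.3%), beside 6.19% of all windows. The CHR word TTTGAA, the element known from genes bound by DREAM and its activating counterparts, was in 57.1% of the G2/M windows, 3.70% of the G1/S windows and 15.2% of all windows. A match of letters in a window is not a bound site, and a window without a match says nothing of binding.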

How the data were processed

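Polyadenylated RNA of 12 stable cell line cultures was sequenced with a kit that keeps the strand (TruSeq Stranded mRNA). For each cell line the authors deposited 1 table of 59424 Ensembl genes, whose values are a signal, namely reads divided by a size factor per library. Per the labels, the submitters' processing notes name FastQC, Salmon, DESeq2, R 3.5.3 and the build hg38, with no further settings. In each library 100% of the values were whole multiples of the smallest step (tolerance 0.01), so that whole reads were recovered. Replicates within a group differed by more than sampling noise (mean chi-square per gene 8.97 to 24.5), and each was counted once. The sources used here do not say whether they were separate transductions, so p-values measure the spread between these cultures.

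The cell lines were fitted separately with limma 3.58.1 in R 4.3.3 (lmFit, eBayes with trend), because the values had been scaled. Values entered as log2(normalised count + 1), and genes with a mean below 5 normalised counts were left out. Gene names, positions and exon lengths came from GENCODE release 29 (94.4% of identifiers), and promoters from RefSeq. The 10 genes and the gene lists were chosen with earlier results of these data known. Named genes were the 10 genes, GALNT7, every gene of lists of up to 8 (the values of some are not reported here, although counts include them), and for longer lists up to 4 called genes per comparison with the largest change and a mean of at least 50. CCNE1, POLD1 and POLE in overexpression and genes named for their chromosome were added after their values were seen. Alternatives were other pseudocounts (0.5, 5), filters (none, 20) and scalings, the replicate block, each library left out, eBayes without trend, a threshold of 0.01, and edgeR 4.0.16 and DESeq2 1.42.0 on the recovered reads. The fits were tested on simulated counts in which a small part of the genes changed, all by the same size. That size was larger than the changes of E2F3, RB1 and RBL1 in overexpression and of E2F4 in knockdown. The simulation therefore does not cover changes as small as these, or a table in which many genes change.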

Additional observations from a re-analysis of the deposited data

How the results depend on the processing

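E2F1, E2F2, E2F7, E2F8 and RBL2 passed in overexpression under all 16 alternatives, whereas E2F3, RB1 and RBL1 did not. In knockdown no alternative called more than 2 of the 10 genes. The cause of the changes below was not tested, except that a stricter threshold on the same fit can only allow fewer calls. With 3 libraries a group, the calls nearest the threshold, E2F3 in overexpression and E2F4 in knockdown, turned on single libraries.

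Of the 10 genes, 1 passed in knockdown, against 0 with no filter on low values, 0 with eBayes without trend, 0 at an adjusted p of 0.01, 2 after the 75th percentile rescaling and 2 with DESeq2. In overexpression 8 passed, against 5 after the rescaling and 5 at 0.01. Over all genes 1623 were called in knockdown, against 996 with eBayes without trend, 2642 with DESeq2 and 392 at 0.01, and 8132 in overexpression against 5303 at 0.01.

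Replicate numbers were shared between groups, but the labels do not say whether equal numbers mark paired cultures, and pairing was not tested. In CWR22RV1 cells the correlations of same-numbered deviations lay between -0.011 and 0.075, beside -0.064 to 0.074 for other numbers. In DU145 cells they lay between 0.016 and 0.043, all above those of other numbers (-0.045 to 0.0042). A replicate block in the fit left 0 of the 10 genes and 1002 of all genes past the threshold in knockdown, with 3 kinase and cyclin genes and 3 G1/S genes, and 7 of the 10 genes and 7405 of all genes past it in overexpression.

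In knockdown the G1/S list had 5 calls, against 3 with no filter, 3 with eBayes without trend, 8 after the rescaling, 9 with DESeq2 and 2 at 0.01. The G2/M list had 1 call, against 2 with a minimum mean of 20, 2 with DESeq2 and 4 after the rescaling. MuvB and DREAM genes had 2 calls after the rescaling and dimerisation partners 1 with DESeq2. Kinases and cyclins had 5 calls, against 1 with eBayes without trend and 0 at 0.01, and their inhibitors 2, against 1 with no filter, 1 with eBayes without trend and 1 at 0.01. In overexpression the kinases and cyclins had 2 calls and the apoptosis list 1 at 0.01.

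With 1 library left out, knockdown gave 0 to 1 of the 10 genes, 525 to 1332 of all genes, 0 to 3 kinases and cyclins, 1 to 2 inhibitors, 2 to 6 G1/S genes, 1 to 2 G2/M genes and 0 to 1 apoptosis genes. Overexpression gave 5 to 8 of the 10 genes and 1 to 4 apoptosis genes. Log2 fold changes that turned in sign were those of E2F1 (-0.051), E2F3 (-0.022) and RB1 (-0.052) in knockdown and E2F4 (-0.024) in overexpression after the rescaling, and RB1 in knockdown without shControl replicate 1 (-0.0090) and without GALNT7 KD replicate 1 (-0.0027), within a range of -0.0090 to 0.083 when libraries were left out. None of these had passed the threshold.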
